A study of Mus musculus with 9 samples.

Results

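The lymphocyte antigen 6 (Ly6) surface antigens Ly6c2, Ly6c1, Ly6i, Ly6a, Ly6e and Ly6d were followed through every cell class of 9 single-cell RNA libraries of mouse gut CD11b+ cells. The 6 genes were found by their symbols among the 31053 genes of the files, and all 6 were present. They had been chosen by their measured levels in monocytes and macrophages, which differed with the microbiota. Differences of the members between conditions in these classes are therefore given below as a description and without a test. Monocyte-like and macrophage-like cells were also compared with each other by a test, which draws on the same levels. The cells were sorted as CD11b+ from male C57BL/6 mice of 7 to 8 weeks, and 10x Genomics 3′ chemistry counted unique molecular identifiers (UMIs), each standing for 1 captured transcript. Wild-type colon gave 2 libraries from specific pathogen-free (SPF) mice, 2 from germ-free (GF) mice, 1 from mice given antibiotics in the drinking water for 1 week (ampicillin 1 g/L, vancomycin 0.5 g/L, neomycin 1 g/L and metronidazole 1 g/L) and 1 from mice given 2.5% dextran sulfate sodium (DSS), a chemical that injures the colon epithelium, for 7 days. A further library came from DSS-treated colon labelled Nlrc4 deficient, and 2 came from small intestine of mice that the labels call normal. The study's methods state that cells were pooled from several mice, and the labels do not say whether the paired libraries of a group came from separate mice, so that p-values measure the spread between libraries, which may be technical.

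Ly6 proteins are short, cysteine-rich proteins that most members attach to the outer face of the membrane through a glycosylphosphatidylinositol anchor. Ly6c2 encodes the Ly6C antigen by which classical monocytes are recognised, and monocytes that enter the gut wall lose Ly6C as they mature into macrophages. Ly6a encodes Sca-1, an antigen of stem cells, endothelium and activated lymphocytes that interferons induce, Ly6e is a broadly expressed interferon-induced member that limits coronavirus entry, and Ly6d is an early B lineage antigen. Ly6c1 is the close paralog of Ly6c2 that endothelium expresses.

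All 6 genes lie in a span of 349.915 kb of chromosome 15 (GRCm38, GENCODE M21), which holds 13 protein-coding genes. Ly6d (chr15:74762056-74763620, minus strand) and Ly6e (chr15:74955051-74959905, plus strand) come first, followed on the minus strand by Ly6i (chr15:74979534-74983430), Ly6a (chr15:74994877-74998031), Ly6c1 (chr15:75044018-75048830) and Ly6c2 (chr15:75108158-75111970). The 3′ reads counted here fall near transcript ends, where Ly6c1 and Ly6c2 are hard to separate: the last 300 bases of their transcripts were 97.95% identical over 293 aligned positions. Of the 100-base windows of Ly6c2, 15.8% occurred unchanged in Ly6c1. No such window was shared between any other pair among Ly6c2, Ly6c1, Ly6i, Ly6a and the neutrophil gene Ly6g. Counts of Ly6c1 and Ly6c2 therefore carry an uncertainty that the other members do not.

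The promoter sequences of this pair are shown because the genes are near copies whose counts fell in different cell classes. Promoters of 2 of the 6 members, Ly6c1 and Ly6c2, were matched in RefSeq (GRCm38.p6), and each is printed as the 250 bases before the first listed start, minus strand, 5′ to 3′. In Ly6c1 (chr15:75048838-75049087) capitals mark TATAAA, the TATA box letters, and in Ly6c2 (chr15:75111972-75112221) they mark GAGGAAGT, the letters searched for the myeloid and B lineage factor PU.1.
Ly6c1: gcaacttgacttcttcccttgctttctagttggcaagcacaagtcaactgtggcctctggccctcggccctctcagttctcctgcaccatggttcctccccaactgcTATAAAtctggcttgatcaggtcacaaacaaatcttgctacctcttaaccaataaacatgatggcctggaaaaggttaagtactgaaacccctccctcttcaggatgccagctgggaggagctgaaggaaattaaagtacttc
Ly6c2: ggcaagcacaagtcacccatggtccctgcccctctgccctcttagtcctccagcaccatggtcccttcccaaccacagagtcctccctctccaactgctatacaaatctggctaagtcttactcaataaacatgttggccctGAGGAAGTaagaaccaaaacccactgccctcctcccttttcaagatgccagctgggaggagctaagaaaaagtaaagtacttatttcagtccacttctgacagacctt

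The windows shared 170 of 210 aligned positions (81.0%). TATAAA began 143 bases before the start of Ly6c1 and was not in the Ly6c2 window, and GAGGAAGT began 108 bases before the start of Ly6c2 and was not in the Ly6c1 window. Both strands of 27025 promoters of the same length were searched, of which 13% held TATAAA and 2.44% held GAGGAAGT. Neither window held GAAA, any 2 bases and GAAA (interferon response, 3.04% of promoters), TTCNNNGAA (GAS, 7.18%) or TTNNGNAAT (C/EBP, 10.3%). These are letter matches and do not show binding.

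After cells with over 15% mitochondrial UMIs or under 200 genes were left out, 31759 of 37123 barcodes remained, 1450 to 6698 per library, with a median of 3342 to 12322.5 UMIs per cell. The libraries held 13243317 to 64453601 UMIs each, and pairs of libraries shared 0 to 18 barcodes. Cells were put into classes by the summed scores of marker genes, none of them a Ly6 gene. The gate assigned 26552 cells and left 5207 unassigned, and 4586 cells lay within 0.1 of a threshold of the gate. Names of classes below mean cells whose markers resemble that type, since no author annotation was used. Although the sort was for CD11b+ cells, the classes included 4397 B cell-like, 2859 plasma cell-like and 2231 T cell-like cells. They also included 1133 epithelial-like and 956 fibroblast-like cells. Whether these cells carried CD11b was not tested, so they may not represent their types in the tissue. The eosinophil-like class had no UMI of Epx, the eosinophil peroxidase gene. In the library labelled Nlrc4 deficient, Nlrc4 stood at 19.9 counts per 1000000 UMIs (CPM), the highest of the 9 libraries (2.42 to 16.5 in the others), and a 3′ count may lie outside the deleted part, so this checks nothing.

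Levels are given in CPM, the UMIs of a gene scaled to all UMIs of the class in a library, over libraries with at least 20 cells of the class, and fewer cells carrying a transcript and less of it per cell cannot be told apart in such sums. Ly6c2 was highest in monocyte-like cells, at 1337 ± 611 CPM (SD, n = 8), followed by plasma cell-like cells at 927 ± 525 (n = 7), cells whose scores lay between monocyte and macrophage at 897 ± 530 (n = 3) and plasmacytoid dendritic cell-like (pDC-like) cells at 874 ± 369 (n = 2). Both pDC-like sums came from small intestine, and those of the cells between from SPF colon 1 and the DSS libraries. Their levels therefore stand beside classes that pool all groups. Neighbours among these 4 did not differ beyond their summed SD, whereas the next class with more than 1 library, neutrophil-like cells at 124 ± 148 (n = 9), lay beyond it below the pDC-like cells. At the level of single cells, 79.3% of monocyte-like and 68.9% of plasma cell-like cells had a Ly6c2 UMI, against 11.7% of macrophage-like and 3.0% of B cell-like cells. The median depths of these classes were 8547, 16704, 4705 and 3297 UMIs. Thinned to 1000 UMIs per cell, the shares were 47.0%, 23.8%, 4.97% and 0.994% in the same order. All these shares pool the cells of all libraries, and small intestine 1 gave 1813 of the 2859 plasma cell-like cells. Free RNA from other cells was not measured, and its part in these shares was not tested.

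Ly6c1 took the complementary place. It reached 601 ± 262 CPM in endothelial-like cells (SD, n = 4) and 202 ± 161 in fibroblast-like cells (n = 8), which did not differ beyond their summed SD, and its mean was at most 5.41 CPM in any other class. Of the UMIs counted for either gene, Ly6c1 took 739 of the endothelial-like pool against 75 for Ly6c2 (90.8%) and 1891 against 140 in fibroblast-like cells (93.1%). In monocyte-like cells it took 86 against 28577 (0.30%) and in plasma cell-like cells 40 against 28601 (0.140%). The near-identical 3′ ends thus still gave opposite splits in stroma and in leukocytes.

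Ly6i, a myeloid member, was highest in the cells between monocyte and macrophage at 283 ± 155 CPM (SD, n = 3), followed by monocyte-like cells at 156 ± 112 (n = 8), macrophage-like cells at 64.4 ± 68.5 (n = 9) and neutrophil-like cells at 57.2 ± 69.5 (n = 9), and no neighbours among these differed beyond their spread. Ly6a was highest in fibroblast-like cells at 772 ± 420 CPM (n = 8), the cells between monocyte and macrophage at 732 ± 196 (n = 3) and endothelial-like cells at 680 ± 599 (n = 4), followed by plasma cell-like cells at 372 ± 288 (n = 7) and pDC-like cells at 353 ± 39.4 (n = 2), and no neighbours in this order differed beyond their spread. The sums of the cells between came only from SPF colon 1 and the DSS libraries, and the endothelial-like sums from no SPF library. Their means therefore stand beside classes that pool all groups. In SPF colon 1, DSS and the library labelled Nlrc4 deficient, Ly6i was 176, 461 and 211 CPM in the cells between. In monocyte-like cells of these libraries it was 228, 336 and 113, so the order turned in SPF colon 1. A Ly6a UMI was found in 75.4% of fibroblast-like, 44.2% of monocyte-like and 23.5% of macrophage-like cells (44.4%, 17.5% and 10.4% at 1000 UMIs). These shares pool the cells of all libraries, which differ in makeup. DSS and the library labelled Nlrc4 deficient gave 611 and 1875 of 3182 monocyte-like cells, but 291 and 333 of 2704 macrophage-like cells. The shares therefore do not compare the classes within a library. Ly6e was present in every class. It ran from 401 ± 259 CPM in epithelial-like cells (n = 8) to 1446 ± 406 in monocyte-like (n = 8) and 1707 ± 251 in pDC-like cells (n = 2), and its 9 B cell-like sums kept to a narrow 1000 ± 94.7. Within the 2 small intestine libraries that gave the pDC-like sums, Ly6e was 1885 and 1529 CPM in pDC-like and 1780 and 1896 in monocyte-like cells, so the pDC-like level was the higher in 1 of them. These libraries held only 43 and 42 pDC-like and 28 and 25 monocyte-like cells. Ly6d was held by the B lineage and pDC-like cells: it stood at 897 ± 523 CPM in pDC-like (n = 2), 393 ± 94.8 in plasma cell-like (n = 7) and 320 ± 159 in B cell-like cells (n = 9), and at 16.8 ± 17.2 in neutrophil-like cells (n = 9), which lay beyond the spread below B cell-like cells.

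**Figure D1:**
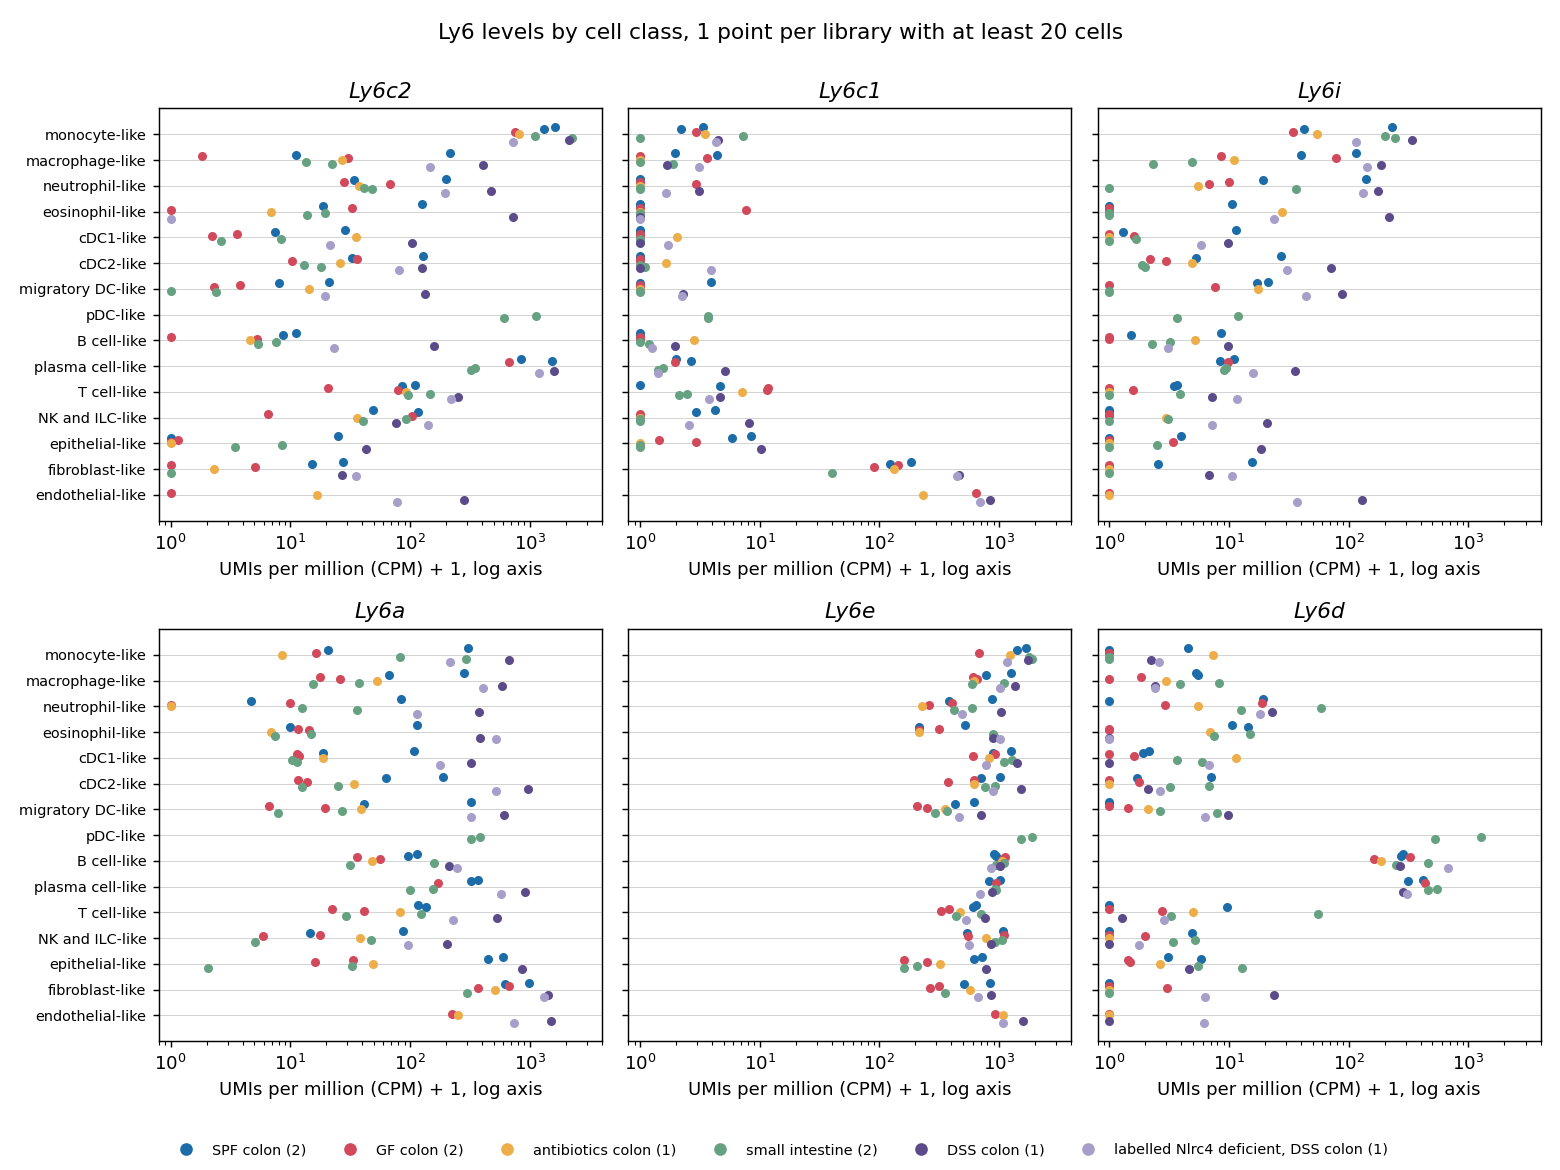
Level of each of the 6 genes (CPM with 1 added, log axis) in each named cell class, with 1 point per library that had at least 20 cells of the class, coloured by group. Ly6c2 is highest in monocyte-like, plasma cell-like and pDC-like sums, Ly6c1 in endothelial-like and fibroblast-like sums and Ly6d in pDC-like, plasma cell-like and B cell-like sums, while Ly6e is above 100 CPM in every class.

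Monocyte-like and macrophage-like sums of the same library were compared first, since loss of Ly6C marks the passage from monocyte to macrophage. The genes had been chosen on their levels in these classes, so the p-values of the members here are no independent support. Ly6c2 ranged from 719 to 2242 CPM (median 1202) in the monocyte-like sums of 8 libraries and from 10.2 to 404 (median 27.6) in the macrophage-like sums, with no overlap. It was higher in monocyte-like cells in 8 of 8 libraries, by a log2 fold change of 4.39 (SE 0.48, adjusted p = 1.9e-06, quasi-likelihood test of edgeR, adjusted over all genes by the Benjamini-Hochberg method, as for every adjusted p below). In this comparison 30.2% of all 9385 genes tested were called, 14.5% as higher and 15.6% as lower. Ly6e was also higher in 8 of 8 libraries, by 0.67 (SE 0.13, adjusted p = 0.00069), although the ranges of 681 to 1896 and 590 to 1361 CPM overlapped. Ly6i did not pass (log2 fold change 1.23, SE 0.55, adjusted p = 0.10, higher in 6 of 8 libraries), but passed without GF colon 2 (1.55, adjusted p = 0.049), without the library labelled Nlrc4 deficient (1.62, adjusted p = 0.046) or with classes taken from clusters (2.23, adjusted p = 0.0042). Ly6a showed no difference that could be told from 0 (0.02, SE 0.44, adjusted p = 0.98, higher in 4 of 8), with a range of 7.54 to 669 CPM in monocyte-like and 14.4 to 591 in macrophage-like cells, whereas with classes from clusters it was 1.00 higher (adjusted p = 0.049). Ly6c1 and Ly6d were too low to be tested.

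Among the type I interferon response genes, a list of 26 that includes none of the 6 members, 9 of 26 tested were higher in monocyte-like cells and 0 lower. They included Ifitm3, an antiviral membrane protein (log2 fold change 2.17, SE 0.19), and Zbp1, a nucleic acid sensor (1.35, SE 0.22). The list's median was 0.37 beside -0.03 for all genes tested. Of the interferon-gamma response genes, 10 of 24 tested were higher, such as Nos2, the inducible nitric oxide synthase (2.13, SE 0.30), and 3 were lower, such as the guanylate-binding protein gene Gbp4 (fell by 1.27, SE 0.42). Plaur, the urokinase receptor and a Ly6 relative, was 0.51 higher (SE 0.09). In the same comparison 4 of 8 neutrophil markers tested were higher in monocyte-like cells, and their part in these results was not tested.

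Plasma cell-like cells stood far above B cell-like cells in Ly6c2. The plasma cell-like sums of 7 libraries ranged from 320 to 1584 CPM (median 843) and the B cell-like sums from 0 to 157 (median 7.64), without overlap and with plasma cell-like cells higher in 7 of 7 (log2 fold change 6.65, SE 0.43, adjusted p = 8.7e-10). Here 64.1% of 9867 genes tested were called, 33.4% as higher and 30.7% as lower. Ly6a was higher by 2.46 (SE 0.20, adjusted p = 1.6e-08, 6 of 7 libraries) and Ly6i by 3.17 (SE 0.31, adjusted p = 1.8e-07, 7 of 7), at levels of 7.40 to 34.5 CPM in plasma cell-like and 0 to 8.79 in B cell-like sums. Immunoglobulin transcripts took 35.9% to 47.9% of the UMIs of plasma cell-like sums and 0.603% to 1.67% of B cell-like sums. That share touches the smaller differences: Ly6e was 0.81 higher (SE 0.09, adjusted p = 6.7e-07) and Ly6d 1.14 higher (SE 0.19, adjusted p = 5.3e-05) after normalization by trimmed mean of M-values (TMM), but on unadjusted library totals Ly6e was -0.15 (adjusted p = 0.17) and Ly6d 0.17 (adjusted p = 0.35), while the median of all genes moved from 0.02 to -0.92. In CPM, Ly6e was higher in only 2 of 7 libraries. The plasma cell-like sums also showed 4 of 5 T cell markers and 4 of 6 macrophage markers tested as higher, and the part of such transcripts was not tested.

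Of 20 type I interferon genes tested between these B lineage classes 10 were higher in plasma cell-like cells and 2 lower. Taken in either direction, this was no larger a share than the 64.1% called among all genes. By direction, 33.4% of all genes were higher and 30.7% lower. Bst2, the antiviral tetherin, was 4.17 higher (SE 0.20) and Isg20, an antiviral exonuclease, 3.52 higher (SE 0.21). Of 22 interferon-gamma genes tested 13 were higher and 3 lower, beside the same shares of all genes. Among the lower was Ciita, the switch for major histocompatibility class II genes, which fell by 2.98 (SE 0.30). The interferon-gamma receptor subunit gene Ifngr2 fell by 2.94 (SE 0.14), and the Ly6 relative Ly6k was 2.58 higher (SE 0.50).

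B cell-like and T cell-like cells divided the family. Over 9 libraries Ly6d ranged from 162 to 677 CPM (median 270) in B cell-like and from 0 to 53.8 (median 1.84) in T cell-like sums, without overlap, and was 6.01 higher on the log2 scale (SE 0.46, adjusted p = 9.3e-09). In this comparison 51.7% of 9843 genes tested were called, 24.5% as higher and 27.1% as lower. Ly6e was likewise higher in 9 of 9 libraries, at 855 to 1121 against 327 to 762 CPM (log2 fold change 0.91, SE 0.12, adjusted p = 9.5e-06). Ly6c2 went the other way, with 0 to 157 CPM (median 6.63) in B cell-like and 19.6 to 249 (median 95.1) in T cell-like sums, and fell by 3.25 (SE 0.36, adjusted p = 8.6e-07, lower in 9 of 9). Ly6c1 fell by 3.29 (SE 0.58, adjusted p = 0.00019), at no more than 10.7 CPM in either class. Ly6a (-0.21, SE 0.17, adjusted p = 0.33) and Ly6i (-0.10, SE 0.60, adjusted p = 0.90) did not pass. Of 23 type I interferon genes tested 17 were lower in B cell-like cells and 0 higher, led by the ubiquitin-like modifier gene Isg15, which fell by 2.87 (SE 0.23), and the interferon-gamma receptor gene Ifngr1 fell by 3.06 (SE 0.14).

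Of the 5 members tested between conventional dendritic cell classes, 4 differed. Ly6a was 9.34 to 321 CPM (median 17.7) in cDC1-like and 10.5 to 958 (median 33.3) in cDC2-like sums and was lower in cDC1-like cells in 9 of 9 libraries, where it fell by 1.29 (SE 0.16, adjusted p = 2.6e-06). Here 50.4% of 9556 genes tested were called, 23.4% as higher and 27.0% as lower. Ly6i fell by 2.55 (SE 0.28, adjusted p = 7.6e-07, lower in 9 of 9) and Ly6c2 by 1.59 (SE 0.30, adjusted p = 0.00030, lower in 8 of 9). Ly6e was 0.23 higher in cDC1-like cells (SE 0.09, adjusted p = 0.032), a call lost when any 1 of 6 libraries was left out, namely SPF colon 1, either GF colon library, the antibiotics library or either small intestine library (adjusted p from 0.054 to 0.098). Without the library term the adjusted p was 0.13 for Ly6c2, 0.22 for Ly6a and 0.45 for Ly6e. Of 25 type I interferon genes tested 16 were lower in cDC1-like cells and 1 higher, with the interferon-induced Rtp4 falling by 3.40 (SE 0.31), and Irf8, a factor that cDC1 need, was 3.54 higher (SE 0.29).

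In monocyte-like cells, the population in which the genes had been picked, Ly6c2 stood at 1637 and 1308 CPM in the SPF colon libraries and at 223 and 749 in the GF colon libraries. The first GF library held only 18 monocyte-like cells and 19 Ly6c2 UMIs, for an exact Poisson 95% interval of 134 to 348 CPM that, like all such intervals here, covers counting error only. Both GF values lay below both SPF values (log2 fold change -1.41, SE 0.48), and small intestine at 1097 and 2242 CPM spanned the SPF range (0.18, SE 0.47). The small intestine libraries held only 28 and 25 monocyte-like cells, against 270 and 185 in SPF colon. The GF value was -0.84 without GF colon 1, -2.65 without GF colon 2 and -2.04 with classes from clusters, and the small intestine value turned to -0.40 without small intestine 2 and to -1.01 with classes from clusters. Among all genes tested in monocyte-like cells 22.9% had both GF libraries below both SPF libraries. Ly6e showed the same order, with 1664 and 1416 CPM in SPF, 575 and 681 in GF and 1780 and 1896 in small intestine (GF against SPF -1.19, SE 0.28).

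For the other members the SPF libraries themselves were far apart. Ly6a stood at 304 and 19.5 CPM in SPF, 106 and 15.5 in GF and 81.5 and 295 in small intestine monocyte-like cells. Ly6i stood at 228 and 41.4 in SPF, 70.4 and 33.0 in GF and 201 and 243 in small intestine. The groups overlapped for Ly6a, while for Ly6i the GF values straddled the lower SPF value, and without SPF colon 1 the GF against SPF difference turned from -1.99 (SE 1.24) to 1.00 for Ly6a and from -1.55 (SE 0.75) to 0.10 for Ly6i. The summed CPM of the 10 macrophage markers in these monocyte-like sums was 3089 and 1210 in SPF, 2570 and 1286 in GF and 4156 and 2508 in small intestine, and its part in the levels was not tested.

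In macrophage-like cells Ly6a stood at 283 and 66 CPM in SPF colon, 16.8 and 24.8 in GF colon and 36.5 and 14.4 in small intestine. Both GF and both small intestine libraries lay below both SPF libraries (GF against SPF -3.01, SE 0.66, and small intestine against SPF -2.90, SE 0.63). Without SPF colon 1 these differences shrank to -1.66 and -1.55, and without SPF colon 2 they were -3.67 and -3.55. The small intestine value was -3.63 without small intestine 1 and -2.32 without small intestine 2. Both GF libraries lay below both SPF libraries for 18.2% of all genes tested in macrophage-like cells, and both small intestine libraries did so for 15.9%. Ly6e followed the same order in GF at a smaller size, with 1262 and 779 CPM in SPF and 601 and 647 in GF (-0.64, SE 0.34), and small intestine at 1099 and 590 overlapped SPF.

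Ly6c2 in macrophage-like cells rested on 1 library: it was 214 CPM in SPF colon 1 and 10.2 in SPF colon 2, against 0.840 and 29.2 in GF and 12.4 and 21.1 in small intestine. The GF against SPF value of -2.86 (SE 1.17) became 0.54 without SPF colon 1, -3.74 without SPF colon 2, -1.90 without GF colon 1 and -6.94 without GF colon 2, where GF colon 1 held a single Ly6c2 UMI. Ly6i stood at 115 and 38.7 CPM in SPF, 7.56 and 77.0 in GF and 3.91 and 1.33 in small intestine, so that GF overlapped SPF and small intestine lay below it (-5.20, SE 1.03, and -4.24 without SPF colon 1). The 10 monocyte markers summed to 1784 and 1075 CPM in SPF, 570 and 545 in GF and 1064 and 1035 in small intestine macrophage-like cells. That sum was lowest in GF, while small intestine lay just below SPF colon 2, and its part in the levels was not tested.

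**Figure D2:**
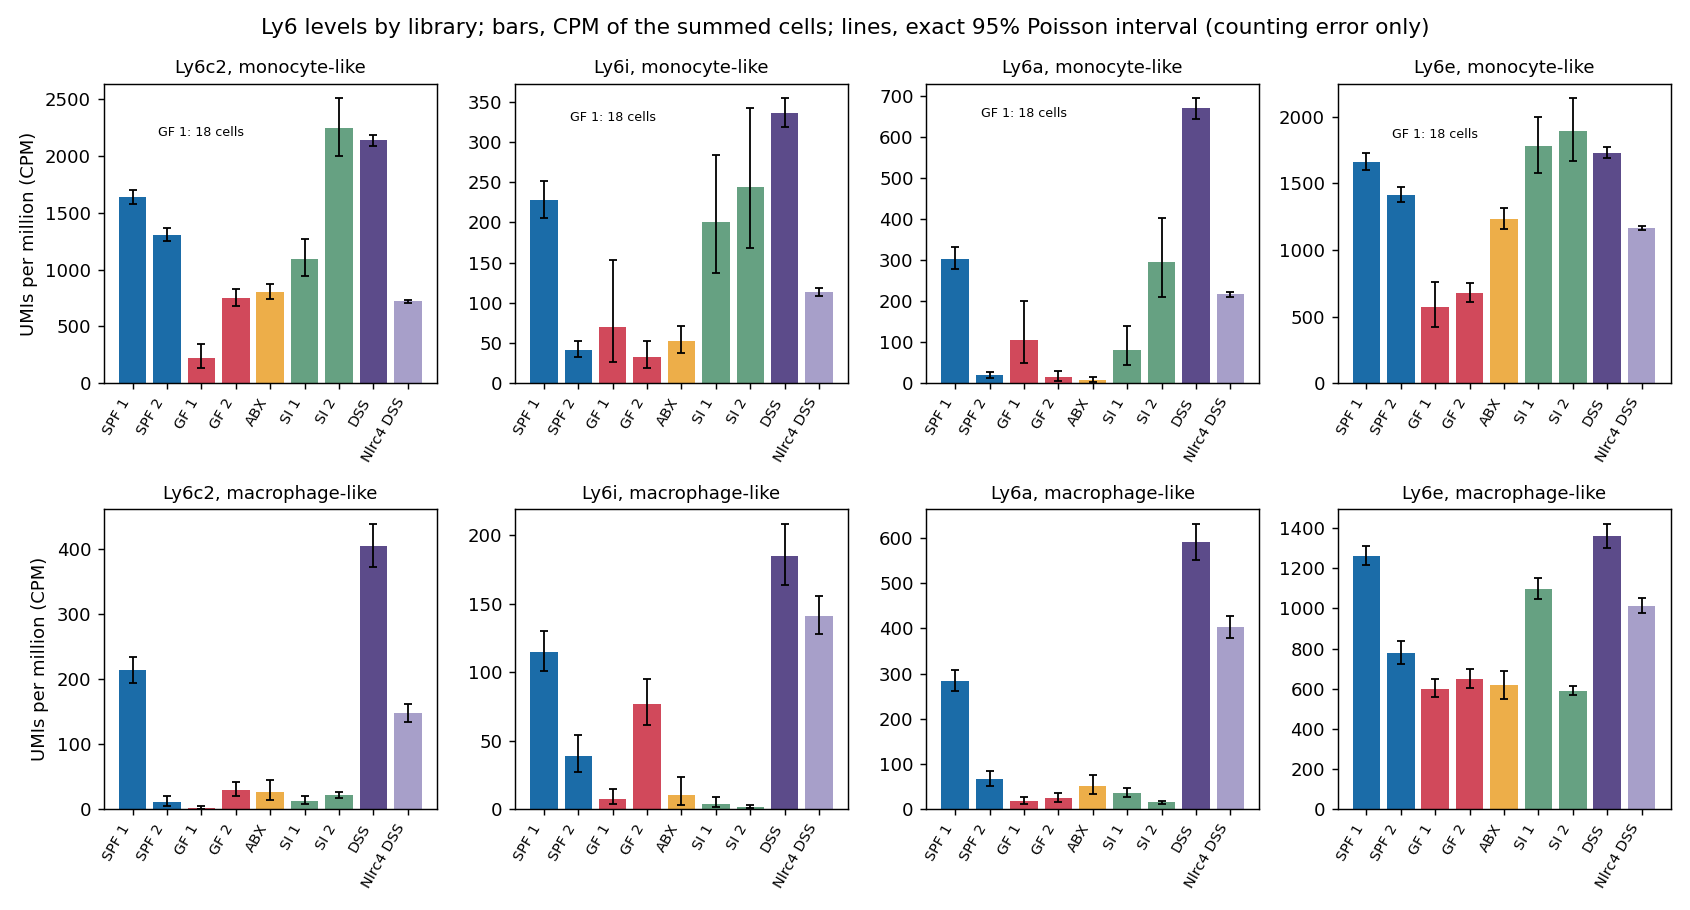
Levels of Ly6c2, Ly6i, Ly6a and Ly6e in monocyte-like (upper row) and macrophage-like cells (lower row), with 1 bar per library (CPM, linear axis from 0) and lines for the exact Poisson 95% interval, which covers counting error only. Both GF bars lie below both SPF bars for Ly6c2 and Ly6e in monocyte-like and for Ly6a and Ly6e in macrophage-like cells, and the GF 1 bars of the upper row rest on 18 cells. The small intestine bars of that row rest on 28 and 25 cells.

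The other cell classes of the same libraries had no part in the choice of the genes, although the GF and small intestine comparisons share the SPF libraries with it and with each other. In 9 further classes, 30 member tests of GF against SPF gave 0 calls by edgeR, as did all 63581 gene tests (0%), of which 3900 had an unadjusted p under 0.05 and 203 were called by DESeq2. Of the 30 member tests 27 had a fold change below 0 and 15 had an unadjusted p under 0.05, 14 of them below 0. DESeq2 called 2 of the member tests, Ly6a in cDC2-like and Ly6e in epithelial-like cells. All member tests share the SPF libraries, and the median of all genes ran from -0.04 to 0.03 across these classes. Ly6i in cDC2-like and Ly6c1 in epithelial-like cells, for example, were counted mainly in SPF colon. There, passing the filter on low counts goes with a fold change below 0, so the counts by direction are a description.

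Ly6a, the Sca-1 gene, was below its SPF level in every class tested. In epithelial-like cells it stood at 595 and 446 CPM in SPF and 32.6 and 15.1 in GF (log2 fold change -4.25, SE 0.98, unadjusted p = 0.0022, adjusted p = 0.34). In cDC2-like cells it stood at 187 and 62.5 in SPF and 10.5 and 12.8 in GF (-3.24, SE 0.58, unadjusted p = 0.00029, adjusted p = 1.0). In migratory DC-like cells it stood at 324 and 40.5 against 5.65 and 18.4 (-3.32, SE 0.87, adjusted p = 0.27). All 3 had both GF libraries below both SPF libraries, and so did 6 of the 7 classes in which Ly6a was tested, beside 25.7% of all gene tests (14.4% to 31.8% per class). All 7 fold changes were below 0, from -4.25 to -0.98 with a median of -2.60, and the smallest was in B cell-like cells, where Ly6a stood at 114 and 95.2 CPM in SPF and 35.3 and 54.7 in GF. Without SPF colon 2, which leaves 1 SPF library whose spread is taken to be that of the other groups, the Ly6a difference was called in cDC1-like (adjusted p = 0.022), cDC2-like (0.049) and migratory DC-like cells (0.0072). Without SPF colon 1, the library with the higher Ly6a in these classes, it was not called in any of them (adjusted p = 0.96, 0.56 and 0.55 in the same order) and shrank to -0.55, -2.31 and -1.30. Without small intestine 1, which changes the shared spread, it was called in epithelial-like cells (0.046). The NK and ILC-like class was the one that overlapped, at 86.3 and 13.6 CPM in SPF and 16.5 and 4.88 in GF.

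Ly6e had both GF libraries below both SPF libraries in 4 of 9 classes and above them in 1, beside 25.7% of all gene tests below and 11.4% above. Epithelial-like cells held 725 and 615 CPM in SPF and 161 and 251 in GF (-1.53, SE 0.35, adjusted p = 0.32), and migratory DC-like cells 613 and 426 against 206 and 248 (-1.0, SE 0.27, adjusted p = 0.30). B cell-like cells were the class above, at 908 and 938 CPM in SPF and 1121 and 1075 in GF (0.39, SE 0.22, adjusted p = 0.77). For Ly6c2 all 7 fold changes were below 0. Both GF libraries lay below both SPF libraries in 3 of these 7 classes, beside the same 25.7% of all gene tests. T cell-like cells, at 109 and 85.4 CPM in SPF and 19.6 and 77.8 in GF, were among the 3. Ly6i passed the filter in 2 of these classes, cDC2-like (26.0 and 4.28 CPM in SPF, 1.16 and 1.95 in GF) and migratory DC-like (20.2 and 16.2 in SPF, 0 of 354286 UMIs in GF colon 1, which allows up to 8.47 CPM, and 6.59 in GF colon 2). Those values lay lower in both GF libraries, at small counts. Ly6i passed the filter there mainly through SPF colon, so that its order is a description only.

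Small intestine against SPF colon gave 1207 calls in 63581 tests over the 9 classes (1.90%), of which 3 were members. In epithelial-like cells Ly6a stood at 31.7 and 1.04 CPM and fell by 5.28 (SE 1.14, adjusted p = 0.038), a call lost without SPF colon 1 (adjusted p = 0.16) or SPF colon 2 (adjusted p = 0.085) and by DESeq2 (adjusted p = 0.070). Ly6e stood there at 205 and 158 CPM and fell by 1.65 (SE 0.35, adjusted p = 0.036), lost without SPF colon 1 (adjusted p = 0.19), SPF colon 2 (0.077) or small intestine 2 (0.24). Epithelial-like cells of the small intestine and of the colon come from different epithelia, and their numbers ran from 23 to 169 per library in these groups. In the same class 5.32% of genes were called. The third was Ly6e in eosinophil-like cells, at 888 and 913 CPM in small intestine and 515 and 213 in SPF (1.64 higher, SE 0.44, adjusted p = 0.021), where 19.9% of genes were called. It was lost without SPF colon 2 (adjusted p = 0.12), small intestine 1 (0.051) or small intestine 2 (0.082), and with classes taken from clusters it was 0.07 (adjusted p = 0.98). Without SPF colon 2, Ly6a was also called as lower in small intestine cDC1-like (adjusted p = 0.0063), cDC2-like (0.017) and migratory DC-like cells (0.011), and Ly6i in cDC2-like cells (0.019), whereas without SPF colon 1 these 4 had adjusted p of 0.61, 0.061, 0.55 and 0.35. DESeq2 called 5 members in all.

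**Figure D3:**
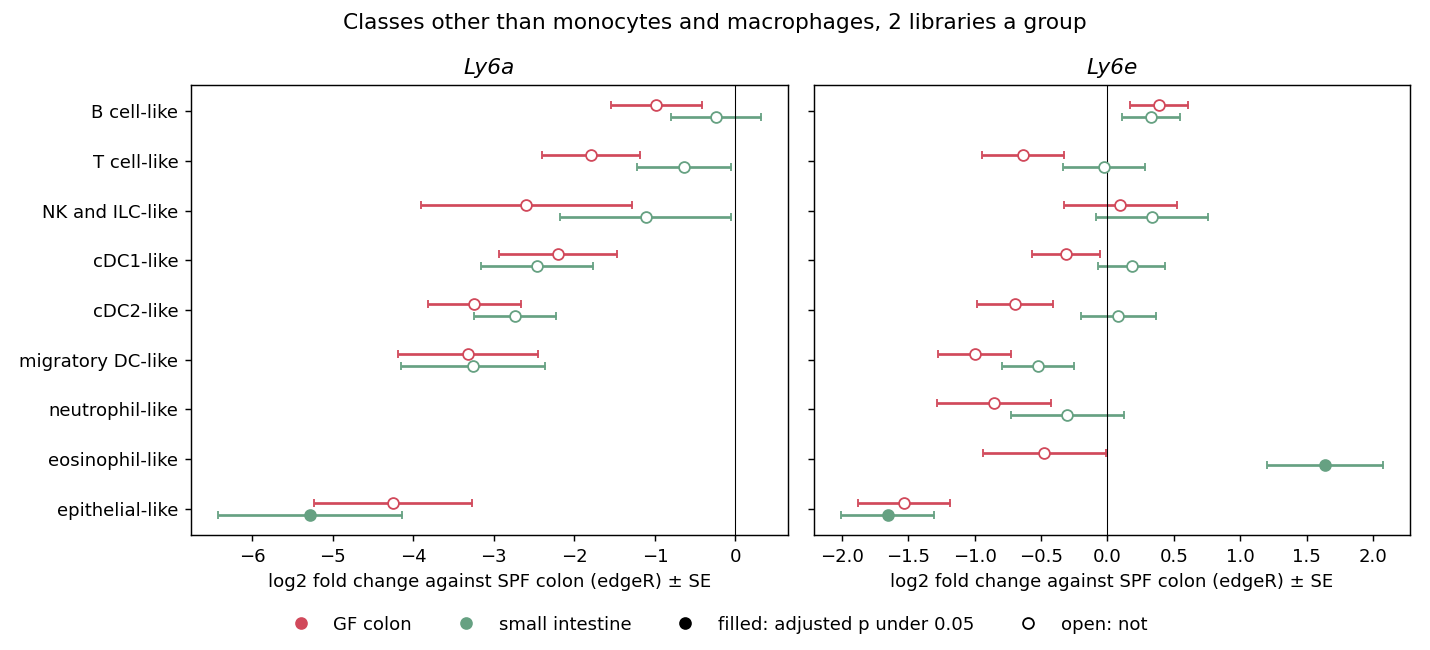
Log2 fold changes from edgeR of Ly6a (left) and Ly6e (right), GF colon (red) and small intestine (green) against SPF colon with 2 libraries a group, in the classes other than monocytes and macrophages where the gene was tested, with bars of 1 SE and filled points for an adjusted p under 0.05. Ly6a lies below 0 in all 7 classes in both comparisons, and the 3 filled points are small intestine values (epithelial-like Ly6a and Ly6e, eosinophil-like Ly6e).

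Interferon response genes were measured in the same sums. In epithelial-like cells 0 of 21 type I genes tested had a GF against SPF fold change above 0. The list median was -3.04 beside 0.03 for all genes. The summed level of the list was 1908 and 645 CPM in SPF and 207 and 170 in GF. Genes counted mainly in SPF colon can pass the filter on low counts through it, so this direction is a description. SPF colon 2 held only 23 epithelial-like cells. In macrophage-like cells the list median was -0.71 and in monocyte-like cells -0.88, while in migratory DC-like cells it was 0.29. For small intestine against SPF, 9 of the 21 type I genes passed as lower in epithelial-like cells, such as Oas3 of the oligoadenylate synthetases, which fell by 6.41, and Isg15, which fell by 4.14. Over 119 sums of a class in a library the correlation of log2 CPM with the summed type I list was 0.67 for Ly6i, 0.55 for Ly6a, 0.46 for Ly6c2, 0.43 for Ly6e, 0.36 for Ly6c1 and -0.22 for Ly6d. These points share libraries and depth and are given as a description.

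Antibiotics, DSS and DSS in the library labelled Nlrc4 deficient had 1 library each and were described without a test. Ratios to the mean of the SPF libraries are given with 10 CPM added to both. In the antibiotics library Ly6c2 was 805 CPM in monocyte-like cells (exact Poisson 95% interval 744 to 870), between the second GF and the lower SPF value, and 25.9 in macrophage-like cells (13.8 to 44.4). Ly6a was 7.54 CPM in antibiotics monocyte-like (2.77 to 16.4) and 51.9 in macrophage-like cells (33.9 to 76), below both SPF libraries in each. Across classes Ly6a lay below both SPF libraries in 11 of 12 and was at least 2-fold lower in 9, with a median ratio of 0.328, whereas 1.60% of all genes were at least 2-fold lower (0.158% to 8.69% per class). Because 10 CPM was added, a gene with an SPF mean under 10 CPM could not be 2-fold lower. Low genes also needed a larger rise to be 2-fold higher. The shares of all genes, here and for DSS below, include such genes and are no like measure for Ly6a. How many of all genes lay below both SPF libraries was not counted, so that count gives direction only.

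The DSS library turned the order round. Ly6a was 669 CPM in its monocyte-like cells (644 to 695) and 591 in its macrophage-like cells (552 to 632), above both SPF libraries. It was above both in all 13 classes compared and at least 2-fold higher in 10, with ratios from 1.64 to 7.27 (median 3.53), where 1.83% of all genes were at least 2-fold higher (0.349% to 8.20% per class). Low genes, which the added 10 CPM holds near a ratio of 1, are part of that share. The cDC2-like level of 958 CPM (896 to 1023) against 187 and 62.5 in SPF gave a ratio of 7.18. Ly6i was at least 2-fold higher in 9 of 12 classes and Ly6c2 in 8 of 13. Ly6c2 stood at 2135 CPM in monocyte-like (2090 to 2181) and 404 in macrophage-like cells (372 to 438), and at 157 in B cell-like cells (134 to 183). Ly6e exceeded both SPF libraries in 11 of 13 classes but was at least 2-fold higher in 1. The share of all genes above both SPF libraries was not counted, so such counts for Ly6a and Ly6e give direction only.

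In the DSS library labelled Nlrc4 deficient, Ly6a lay above both SPF libraries in 11 of 12 classes, at least 2-fold in 6 (median ratio 2.00), where 1.57% of all genes were at least 2-fold higher (0.585% to 12.5% per class). That share again includes low genes, and the share of all genes above both SPF libraries was not counted. The Ly6a levels were 216 CPM in monocyte-like (210 to 223) and 403 in macrophage-like cells (380 to 427). Side by side with the other DSS library, the level was lower in 10 of 12 classes for Ly6a, Ly6c2 and Ly6i. It was lower in 11 for Ly6e, in 8 for Ly6c1 and in 3 for Ly6d. How many of all genes were lower was not counted, so these counts give direction only. The eosinophil-like class held only 20 cells in the library labelled Nlrc4 deficient. Ly6c2 was 719 CPM in its monocyte-like cells (707 to 732), below both SPF libraries, and 147 in its macrophage-like cells (133 to 162). It held 1875 monocyte-like cells, against 611 in the other DSS library and 270 and 185 in SPF colon. Genotype and library cannot be told apart here.

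**Figure D4:**
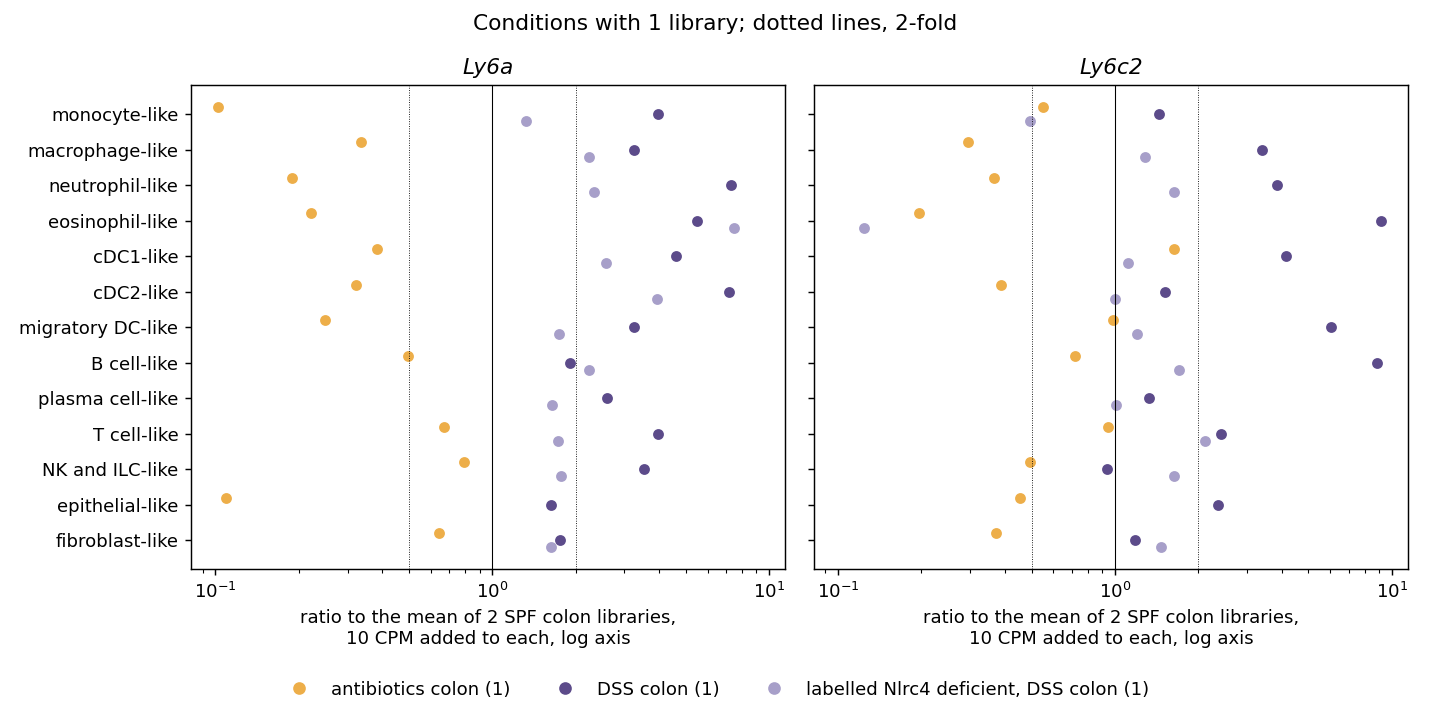
Ratio of Ly6a (left) and Ly6c2 (right) to the mean of the 2 SPF colon libraries (10 CPM added to each, log axis) in the antibiotics library, the DSS library and the DSS library labelled Nlrc4 deficient, with 1 point per cell class and dotted lines at 2-fold. All 13 Ly6a points of DSS lie above 1 and all 12 of antibiotics below it, whereas the Ly6c2 points of the library labelled Nlrc4 deficient lie on both sides.

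Relatives of the family with the same protein fold were mostly silent in these cells. Of 28 on the list, 26 were in the files, 5 had no UMI and 7 reached 10 CPM in some class. Lypd8, an epithelial protein of the colon that holds bacteria off the mucosa, reached 1986 CPM in epithelial-like cells, and Plaur reached 992 in monocyte-like and 876 in neutrophil-like cells. The others were Gpihbp1 (104) and Cd59a (26.6) in endothelial-like, Ly6g (70.6) in neutrophil-like, Lynx1 (22.6) in fibroblast-like and Ly6k (20.6) in plasma cell-like cells.

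By the correlation of log2(CPM + 10) over the 119 sums, among 3086 genes with a mean of at least 50 CPM, the genes most like each member were H13, Edem1 and Rap1a for Ly6c2 (highest r 0.62), Cavin1, Igfbp7 and Col4a1 for Ly6c1 (0.93), Ms4a6d, Ifi204 and Ms4a4c for Ly6i (0.78), Iigp1, H2-T22 and Ifi27l2a for Ly6a (0.69), Mndal, Ifi203 and Atf6 for Ly6e (0.67) and Iglc3, Mzb1 and Iglc2 for Ly6d (0.91). Ms4a4c and Mzb1 were gate markers. The highest correlations belonged to Ly6c1 and Ly6d, the members with the fewest classes, and the lowest to Ly6c2, whose sums came from both monocyte-like and plasma cell-like cells.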

How the data were processed

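Per the file headers, the authors made the deposited UMI counts per gene and cell with Cell Ranger 3.0.2, and the submitters' processing notes name mm10; no normalization was applied to the counts. Cells with at most 15% mitochondrial UMIs and at least 200 genes were kept, and a class was given where the mean capped z-score of its marker genes was at least 0.5 and led the next class by 0.25. Scrublet called 128 cells (0.403%), too few to have worked, so doublets were not removed. UMIs were summed per library and class, and edgeR 4.0.16 (R 4.3.3) was run with TMM, filterByExpr, the quasi-likelihood test and Benjamini-Hochberg adjustment at 0.05. Class comparisons carried a library term and used classes with at least 20 cells in a library, and GF and small intestine were compared with SPF colon within a class. DESeq2 1.42.0 was an alternative. The scripts were tested on simulated data.

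The members, marker lists and interferon lists were chosen with earlier results of these data known. Genes of the lists were named by size among those called (up to 4 per list and comparison), relatives from 10 CPM in a class, and the 3 most correlated genes per member. Intervals are exact Poisson (CPM) and cover counting error only, and a count of 0 allows up to 3 UMIs. Other normalizations, filters, gates, clusters, a replicate block and each library left out in turn were tried.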

Additional observations from a re-analysis of the deposited data

Results flagged for a closer look

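In 4 cases a member lay above SPF colon in both libraries of a condition in one class and below it in both in another, and the difference between classes was not tested. Ly6c1 in T cell-like cells was 2.49 higher in GF on the log2 scale, at 10.7 and 10.6 CPM against 0 and 3.66 in SPF, while it lay lower in epithelial-like cells. Ly6e in B cell-like cells was 0.39 higher in GF, while T cell-like, cDC2-like, epithelial-like and migratory DC-like cells lay lower. For small intestine, Ly6e was 0.33 higher in B cell-like and 1.64 higher in eosinophil-like cells, while epithelial-like and migratory DC-like cells lay lower. The B cell-like levels were 1106.38 and 938.521 CPM against 908.188 and 938.35 in SPF. Small intestine 2 was thus nearly level with SPF colon 2, and the B cell-like difference did not pass.

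The 5207 cells that the gate left unassigned were used in no comparison, and in 5 members a DSS library had a level whose Poisson interval lay above those of both SPF libraries. In the DSS library Ly6c2 was 540 CPM (330 and 101 in SPF), Ly6i 192 (100 and 17.6), Ly6a 796 (224 and 60.4) and Ly6e 1179 (1067 and 708). In the library labelled Nlrc4 deficient, Ly6a was 494 CPM and Ly6d 22.0 (12.1 and 7.55 in SPF).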

How the results depend on the processing

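Of 1128 alternative values of single members, 1020 kept their direction and their side of the threshold or, where untested, moved by less than 1 SE, 41 passed where they had not before, 23 no longer passed, 27 untested values moved by more than 1 SE and 17 tested values changed sign. Ly6a between monocyte-like and macrophage-like cells was -0.17 by DESeq2, -0.0079 with RLE size factors, -0.021 on unadjusted totals, -0.70 with a tighter gate and -0.45 to 0.26 with 1 library left out, below 0 without DSS or either small intestine library. Ly6i between B cell-like and T cell-like cells was 0.11 by DESeq2, 0.019 without the doublets called, 0.059 with the tighter gate and -0.43 to 0.11 with 1 library left out, above 0 without SPF colon 2. For small intestine, Ly6a in B cell-like cells was 0.011 by DESeq2, and with 1 library left out it was -1.62 to 0.82 in B cell-like, -3.47 to 0.77 in NK and ILC-like and -2.07 to 0.091 in T cell-like cells, above 0 without small intestine 2 in all 3 and without SPF colon 1 (0.77) in NK and ILC-like cells. Ly6e between plasma cell-like and B cell-like cells was -0.15 on unadjusted totals. The looser and tighter gates, unadjusted totals and the top 5% of doublet scores left out were chosen after seeing the data. The cause of the changes was not tested.

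Without the library term, 1560 of 2832 calls remained in number between monocyte-like and macrophage-like cells and 2964 of 4814 between cDC1-like and cDC2-like cells, where the members called went from 4 to 0 (Ly6i was not fitted there). Members called between monocyte-like and macrophage-like cells went from 2 to 4 with classes from clusters, and between plasma cell-like and B cell-like cells from 5 to 3 on unadjusted totals. With 1 library left out, these class comparisons gave 2373 to 2778 calls (2 to 3 members), 5589 to 6404 (5 to 5) between plasma cell-like and B cell-like, 4576 to 4986 (3 to 4) between B cell-like and T cell-like and 4295 to 4722 (3 to 4) between cDC1-like and cDC2-like cells.

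The 0 calls of GF against SPF outside monocytes and macrophages became 203 by DESeq2, 19 on unadjusted totals, 896 without the filter on low counts and 1 each with clusters, the top 5% of doublet scores left out or the looser gate. They became 7 to 139 with 1 library left out, namely 85 without SPF colon 1, 139 without SPF colon 2, 18 and 7 without GF colon 1 and 2, and 12 and 10 without small intestine 1 and 2. Members called went from 0 to 2 by DESeq2, 12 without the filter and 0 to 3 with 1 library left out. The 1207 small intestine calls became 3244 without the filter, 695 with clusters and 377 to 1466 with 1 library left out (672 without SPF colon 2, 716 and 377 without small intestine 1 and 2). The 3 members called became 5 by DESeq2, 11 without the filter, 0 with 10% mitochondrial UMIs and 500 genes as limits, 1 with clusters and 1 to 4 with 1 library left out. In monocyte-like and macrophage-like cells the 0 calls became 42 by DESeq2, 332 without the filter and 1 to 21 with 1 library left out.

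The labels number replicates 1 and 2 but name no shared batch. Same-numbered SPF and GF libraries deviated together, with correlations of 0.076 to 0.676 (over 0.1 in 10 of 11 classes). SPF and small intestine gave -0.012 to 0.538 (8 of 11), and GF and small intestine -0.128 to 0.404 (5 of 11). A shared batch was thus possible and was not tested. Only 2 numbers are shared, too few to take as pairs, so the main GF and small intestine fits carried no replicate term. With the replicate block, GF calls went from 0 to 358, among them 3 members. These were Ly6a in epithelial-like (adjusted p = 0.0055) and cDC2-like cells (0.047) and Ly6c2 in epithelial-like cells (0.0086). Ly6c2 stood there at 24.0 and 0 CPM in SPF and 0.143 and 0 in GF, so its call rested on SPF colon 1. Small intestine calls went from 1207 to 2064, with 6 members (also Ly6a, 0.0052, and Ly6i, 0.047, in cDC2-like and Ly6c1, 0.043, in epithelial-like cells). Ly6c1 stood there at 7.50 and 4.85 CPM in SPF, the latter a single UMI, and at 0 in both small intestine libraries. Calls in monocyte-like and macrophage-like cells went from 0 to 1. The cDC1-like class was not separated by clusters, so no cluster alternative was run for it. Depth limited the monocyte-like level of GF colon 1 most, with 18 cells, followed by the small intestine libraries with 28 and 25.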

Other observations

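Between the monocyte-like and macrophage-like classes lay 219 cells whose scores for both types were too close to be assigned, and 3 libraries held at least 20 of them. Ly6a in these cells was 705 CPM in SPF colon 1, 941 in DSS and 552 in the library labelled Nlrc4 deficient, above both the monocyte-like level (304, 669 and 216) and the macrophage-like level (283, 591 and 403) of the same library in 3 of 3. Ly6c2 stood at 1261, 1140 and 289 CPM there, between the levels of the neighbouring classes in each library. These cells had a median of 8969 UMIs, and the share of doublets among them was not tested.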
